A study of Mus musculus with 9 samples.

Results

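The genes described here run the cell division cycle: cyclins and their kinases, the factors that license and unwind replication origins, the enzymes that make and copy DNA, and the kinases, checkpoint proteins, motors and chromosome proteins of mitosis. They were chosen by name, as all probe sets on 3 array designs whose single annotated gene symbol was 1 of 34 symbols, and the probe set with the highest mean signal stood for each gene. Of the 34 genes, 33 had such a probe set, and together they held 55 of the 36899 probe sets of the series. Cyclin B1 (Ccnb1) had none with a single symbol and was not analysed here. The genes fall into 19 of the G1/S transition and DNA replication and 15 of mitosis, of which 14 had a probe set.

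The series profiled total RNA of whole mouse embryos at embryonic day 7.5, the stage of gastrulation, on 1-colour Affymetrix arrays of 3 designs called A, B and C (murine genome U74, version 2). The conditional knockout pool held about 50 embryos in which beta-catenin (Ctnnb1), the effector of canonical Wnt signalling and a junction protein, was removed by Cre recombinase under the cytokeratin 19 promoter. The 2 control pools carried a floxed and a deleted allele (floxed/deleted) or a wild-type and a floxed allele (wild type/floxed). Both control genotypes thus carried a floxed allele, and the labels do not spell out the alleles of the knockout embryos before Cre acted. The labels give neither the number of embryos nor the presence of Cre for the control pools, and a floxed/deleted embryo with Cre could have the genotype of the knockout. Each pool had 1 array of each design, 9 arrays in all, so no difference has a replicate check, an error or a p-value, and the smallest exact two-sided permutation p for 1 array against 2 would be 0.667. Cre acts where and when this promoter is active, and each pool was measured in bulk. Fewer cells of a dividing type and less RNA per cell cannot be told apart in such a pool. Signals are array intensities and are given in the order knockout, floxed/deleted, wild type/floxed.

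A cell enters division when D-type cyclins bind Cdk4 and related kinases, which releases E2F transcription factors to switch on cyclin E and the replication genes. Origins are loaded with the Mcm helicase in G1 and fired in S phase, after which cyclin A, cyclin B and Cdk1 drive mitosis, and the anaphase-promoting complex with Cdc20 ends it. The embryo at gastrulation is known for very fast cycles, above all in the epiblast and primitive streak, and D-type cyclin genes are known targets of Wnt signalling in several tissues.

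The 2 classes are known to be switched on through different promoter words, E2F sites for many G1/S genes and CHR elements, often with CCAAT boxes, for many mitotic genes, so the promoters were read first. RefSeq promoter windows of assembly GRCm38.p6, from 250 bases before to 50 bases after each annotated start, were found for 29 of the 34 genes and for 27025 genes in all. They were searched on both strands for the CHR words TTTGAA and TTTAAA (the latter reads the same on both strands), the CCAAT box CCAAT and the E2F words TTTCCCGC, TTTCGCGC, TTTGCCGC and TTTGGCGC. A CHR word lay in 11 of 13 mitotic windows (84.6%) and in 5 of 16 G1/S and replication windows (31.2%), against 30.6% of all windows. An E2F word lay in 7 of 16 G1/S and replication windows (43.8%) and in 1 of 13 mitotic windows (7.69%), that of Cdk1, against 2.60% of all. A CCAAT box lay in 11 of 13 mitotic and 12 of 16 G1/S and replication windows (84.6% and 75.0%), against 41.1% of all. A match describes the letters of a window and is neither a binding site nor a cause of a level. The 4 windows printed, from 250 bases before to 30 bases after the start, are the mitotic gene farthest from its controls, its kinase partner with both kinds of word, and a helicase and an origin gene with E2F words. Capitals mark the CHR and E2F words.
Ccnb2: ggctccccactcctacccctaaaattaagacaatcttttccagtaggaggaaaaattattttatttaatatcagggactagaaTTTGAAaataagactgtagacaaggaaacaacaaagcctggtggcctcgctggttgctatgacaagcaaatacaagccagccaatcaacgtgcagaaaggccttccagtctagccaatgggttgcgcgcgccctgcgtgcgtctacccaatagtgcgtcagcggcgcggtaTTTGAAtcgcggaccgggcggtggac
Cdk1: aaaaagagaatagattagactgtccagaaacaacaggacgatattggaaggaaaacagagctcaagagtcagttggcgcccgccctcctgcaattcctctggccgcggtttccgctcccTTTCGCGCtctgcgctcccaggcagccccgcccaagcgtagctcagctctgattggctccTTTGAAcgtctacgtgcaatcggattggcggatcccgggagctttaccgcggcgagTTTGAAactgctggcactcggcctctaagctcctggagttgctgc
Mcm7: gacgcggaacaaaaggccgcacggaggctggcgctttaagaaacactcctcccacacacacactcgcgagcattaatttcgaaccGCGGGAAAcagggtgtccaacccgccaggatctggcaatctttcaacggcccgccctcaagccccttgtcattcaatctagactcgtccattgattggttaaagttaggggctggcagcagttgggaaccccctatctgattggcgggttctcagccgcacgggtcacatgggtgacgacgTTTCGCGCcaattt
Orc1: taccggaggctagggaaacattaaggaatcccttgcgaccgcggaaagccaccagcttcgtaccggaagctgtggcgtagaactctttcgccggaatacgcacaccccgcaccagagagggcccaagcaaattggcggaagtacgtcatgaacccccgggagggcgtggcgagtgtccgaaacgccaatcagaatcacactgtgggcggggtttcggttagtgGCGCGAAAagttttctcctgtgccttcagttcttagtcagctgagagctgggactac
The Ccnb2 window (chr9:70421525-70421804, minus strand) holds CHR words whose first bases lie at -167 and +5 from the start, with CCAAT boxes at -87, -54 and -21. The Cdk1 window (chr10:69352883-69353162, minus strand) holds CHR words at -71 and -15 and an E2F word at -131. Its CCAAT boxes, on the opposite strand, lie at -208, -80 and -48. The Mcm7 window (chr5:138171854-138172133, minus strand), 1 of 2 annotated starts, holds E2F words at -165 and +17, the second of which shares 1 base with the CCAAT box at +24. Further CCAAT boxes, on the opposite strand, lie at -72 and -26. The Orc1 window (chr4:108579204-108579483, plus strand) holds an E2F word at -27 and CCAAT boxes at -120, on the opposite strand, and -66.

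The embryo label was checked against tissue markers. Of the marker genes, all 16 of the visceral endoderm, 6 of 8 of the epiblast and 7 of 10 of the mesoderm were measured, which means a signal above the pooled median of the design (57.3 on A, 90.0 on B, 80.9 on C) on at least 1 of its 3 arrays. By that rule 77.6% of all genes were measured, so these shares by themselves say little, and 3 mesoderm markers and 1 epiblast marker had no probe set with a single symbol. Values below that floor were set to it before log2 was taken. Ctnnb1 itself stood at 1376, 1509 and 1773, lowest in the knockout by 1.10-fold, and no source used here places its probe set inside or outside the deleted exons. The SD over measured genes of the log2 difference between the controls was 0.42 on design A, 0.59 on B and 0.89 on C, so differences on C had the widest background. Of the brightest probe sets of the 33 genes, 28 were on design A, 1 on B and 4 on C.

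The cell cycle genes were well detected in all 3 pools. Of 33 genes, 32 (97.0%) lay above the floor on all 3 arrays of their design, against 50.0% of 15965 genes with a probe set. Tyms, which encodes thymidylate synthase, was the exception, with 13.2, 104 and 40.0 on design C. Mcm5, Mcm7, Cdk4 and Cdc20 gave signals between 2981 and 5545 in every pool.

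**Figure D1:**
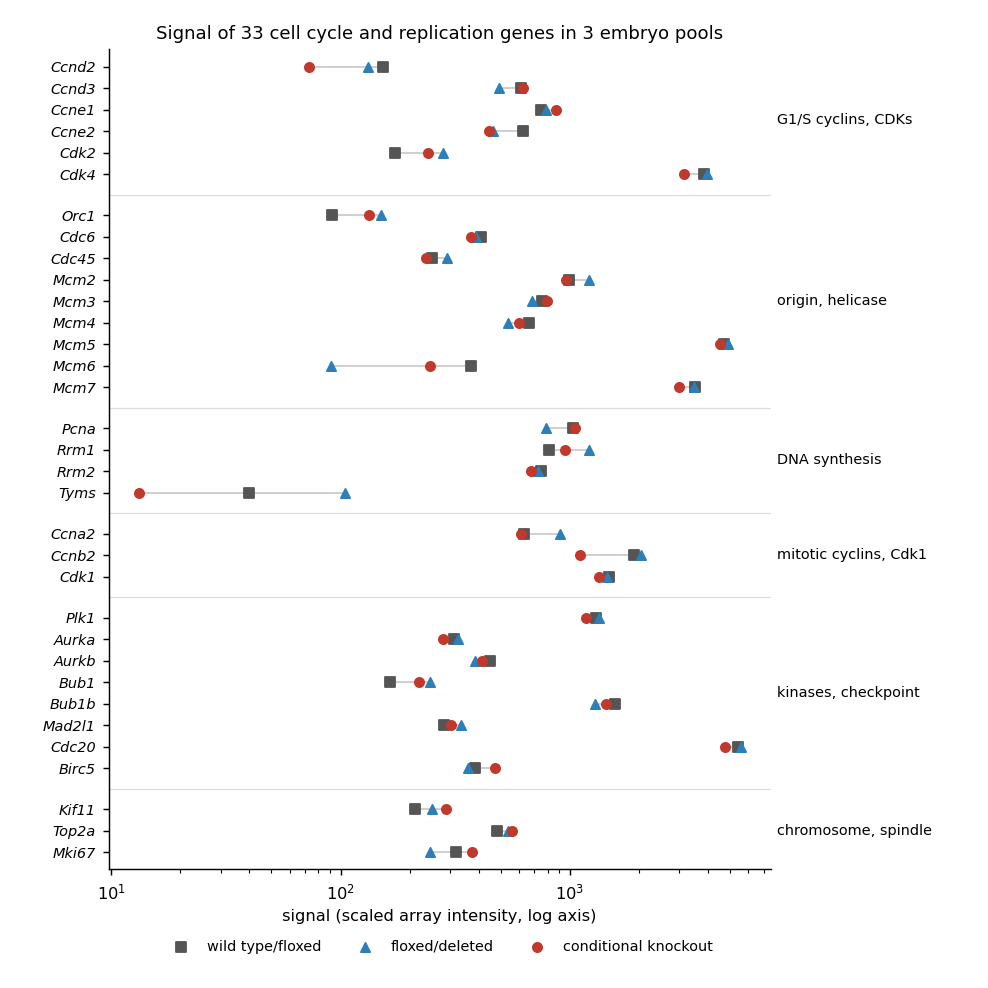
Signal of the brightest probe set of each of the 33 genes (rows, by role) in the conditional knockout (red circles), floxed/deleted (blue triangles) and wild-type/floxed (grey squares) pools, on a log axis of scaled array intensity. Most genes have their 3 points close together. The red circle stands apart to the left for Ccnd2 (73.0), Ccnb2 (1108) and Tyms (13.2), and the blue triangle for Mcm6 (91.0). Signals are drawn without the floor, and the Tyms value lies below it. Levels of different genes are not comparable because each has its own probes.

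The cyclin genes Ccnd2 and Ccnb2 stood lower in the knockout pool than in both controls, and no gene stood higher at the same fold. A gene was counted as standing apart when it was at least 1.5-fold lower, or higher, than both other pools. Of 33 measured genes, 2 were lower in the knockout (6.06%) against 5.80% of 12388 measured genes. None was higher, against 6.51% of all. In floxed/deleted 1 gene was lower, Mcm6, against 5.61% of all, and 0 were higher, against 7.51%. In wild type/floxed 0 were lower, against 5.63%, and 1 was higher, again Mcm6, against 6.58%. The count in the knockout was thus near the background of all genes and is no result about the cell cycle genes as a set. Among the 28 genes on design A, all above the floor on every array, 2 were lower (7.14%) against 2.95% of 3321 genes measured so, and 0 were higher against 2.77%.

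Ccnd2 encodes cyclin D2, a G1 cyclin that activates Cdk4 and Cdk6. Its signals were 73.0, 132 and 154. The knockout lay just above the floor and below both controls, which were 1.16-fold apart, and it was 1.81-fold lower than floxed/deleted and 2.11-fold lower than wild type/floxed. Ccnd2 has no other probe set here. With a floor at the 70th percentile (134.1 on design A) the knockout and floxed/deleted values both lay under it, and the difference from the nearer control became 0 on the log2 scale.

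Ccnb2 encodes cyclin B2, a partner of Cdk1 in mitosis. Its signals were 1108, 2041 and 1905, far above the floor. The controls differed by 1.07-fold, and the knockout lay 1.72-fold below wild type/floxed and 1.84-fold below floxed/deleted. Ccnb2 too has no other probe set. Its log2 difference from the nearer control, -0.78 as reported, was -0.74 with arrays scaled to equal medians and -0.77 with quantile normalization. With floxed/deleted as the sole control it was -0.88, the distance to the farther control. The floor, design and probe set settings left it at -0.78, because they could not move a lone bright probe set on design A.

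The beta-actin 5′ to 3′ signal ratio, a sign of RNA integrity, was lower in the knockout pool on each design. In the order of the signals it was 0.570, 0.655 and 0.696 on design A. On design B the 3 ratios were 0.608, 0.685 and 0.730, and design C gave 0.613, 0.698 and 0.681. Some tissue markers also differed in this pool. By the 1.5-fold count, which 6.51% of all genes met as higher and 5.80% as lower, 5 of 16 visceral endoderm markers stood higher and 0 lower. Sox17 (225, 346 and 291) and Lrp2 (322, 355 and 347) were lower than both controls by less, and Hnf4a and Gata6 lay between them. The summed signal of the 16 was 39537 against 19943 and 22780, and without Apoa1 and Amn, which make up most of it, 10547 against 6217 and 7161. Of 6 measured epiblast markers 4 were higher, with a summed signal of 11773 against 6797 and 5433, and Tdgf1 lay below the floor on all arrays. Of 7 measured mesoderm markers 1 was lower, Tbx6 at 100.3, 268 and 307, and 0 higher, with a median shift of -0.08 and a sum of 1483 against 1838 and 1702. The 6 measured trophoblast markers (median 0.08, sum 745 against 748 and 693) and the 5 measured primitive blood markers (median -0.20, sum 272 against 404 and 207) held 0 genes at 1.5-fold. Of 10 maternal and immune markers, Dcn, Col3a1, Ptprc, C1qa and Lyz2 lay below the floor on all arrays, 2 of the 5 measured were higher, and the sum was 727 against 432 and 258. The part of these shifts in the cell cycle values was not tested.

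**Figure D2:**
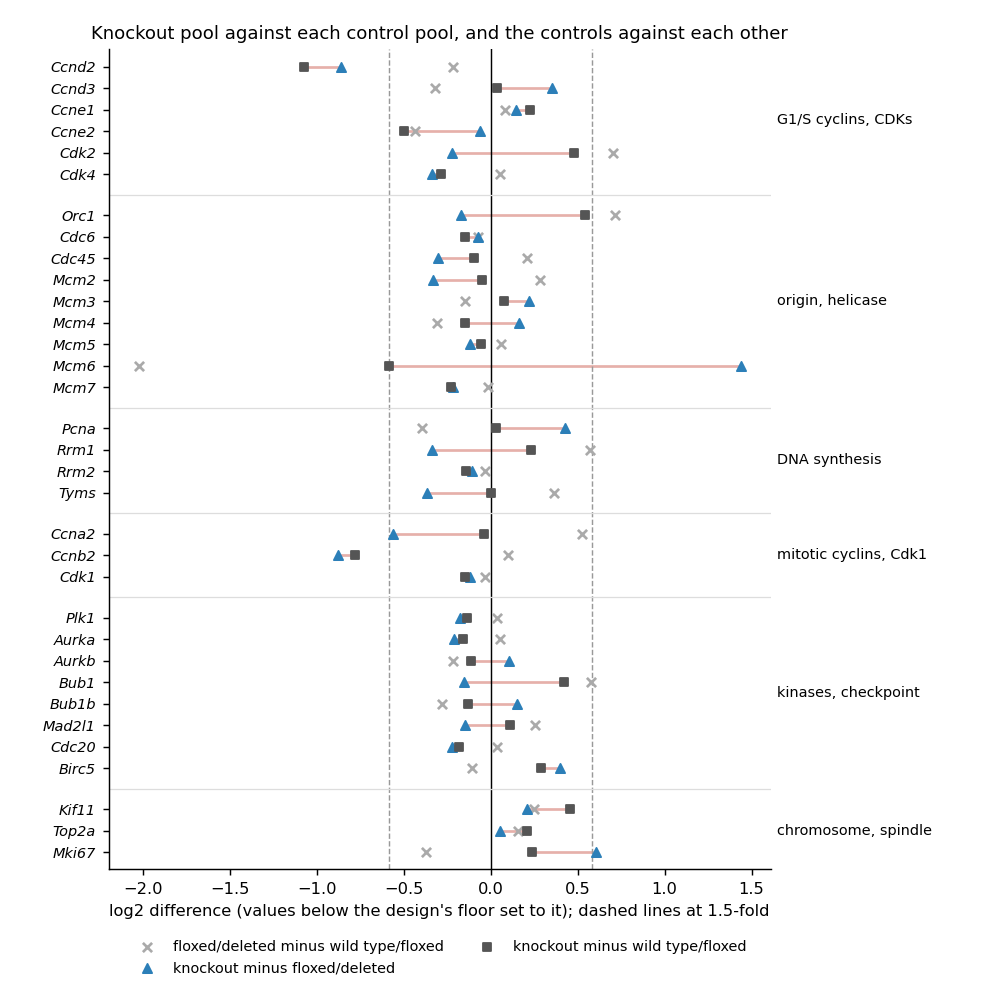
Log2 difference of the knockout from floxed/deleted (blue triangles) and from wild type/floxed (grey squares) for each gene, with the difference between the controls as grey crosses; dashed lines mark 1.5-fold. Both knockout points lie left of the dashed line for Ccnd2 (-0.86 and -1.07) and Ccnb2 (-0.88 and -0.78), while for Mcm6 the largest difference is between the controls (-2.02).

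No other G1/S cyclin or kinase gene among the members was 1.5-fold lower on its brightest probe set. Cyclin D1 (Ccnd1), which is no member, was lower on 2 of its 3 probe sets, and a second Ccne1 probe set was lower too, as given further on. Ccnd3, which encodes the related cyclin D3, stood at 627, 490.4 and 612, with the knockout next to wild type/floxed. Ccne1, which encodes cyclin E1, a Cdk2 partner at the start of S phase, stood at 872, 788 and 746, 1.11-fold higher in the knockout than in the nearer control. Ccne2, its paralog, was measured on design C at 443, 462 and 626, so the knockout lay next to floxed/deleted. Cdk4, the kinase of the D-type cyclins, stood at 3144, 3969.6 and 3827, 1.22-fold lower than the nearer control. Cdk2, the kinase of cyclins E and A, stood at 240.3, 280.1 and 172, between controls that were 1.63-fold apart. Over these 6 genes the median shift, the log2 knockout value minus the mean of the controls, was -0.07, and it was 0.01 when arrays were scaled to equal medians.

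The helicase subunit genes other than Mcm6 were close to their controls. The Mcm2 to Mcm7 proteins form the replicative helicase, which Orc1 and Cdc6 load and Cdc45 activates. Mcm5 stood at 4505, 4885 and 4692, Mcm7 at 2981, 3458 and 3499 and Mcm2 at 961, 1209 and 995. Those 3 subunits were each lowest in the knockout, by 1.04-fold to 1.16-fold from the nearer control, though with equal medians Mcm5 lay between the controls. Mcm3 was highest in the knockout, at 798, 685 and 758, and Mcm4 lay between the controls, at 599, 536 and 663. The 5 subunits other than Mcm6 had shifts from -0.22 to 0.15 and a median of -0.09, against a median of -0.02 between the controls.

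Mcm6 was set apart by its controls. Its brightest probe set, on design C, gave 246, 91.0 and 370.1, so floxed/deleted was 2.71-fold lower than the nearer pool and the controls were 4.07-fold apart. The knockout lay between them. A second Mcm6 probe set on design C gave 163, 41.5 and 27.5, at least 2.01-fold higher in the knockout because both controls were below the floor, and the one on design A was below the floor on all arrays. The 2 measured probe sets of this gene thus ordered the pools differently.

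The loading factors showed no common direction. Orc1, a subunit of the origin recognition complex, stood at 134, 150.5 and 91.8, with the knockout between controls 1.64-fold apart. Cdc6, the loader of the helicase, stood at 369.8, 389 and 409, with at most 1.11-fold between pools. Cdc45, which joins the helicase when origins fire, stood at 235, 290.2 and 251, lowest in the knockout by 1.07-fold. A second Cdc45 probe set, on design C, gave 151, 517 and 98.2 and placed the knockout between the controls.

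Genes of DNA synthesis and nucleotide supply did not separate the knockout. Pcna, the sliding clamp of DNA polymerases, stood at 1055, 785 and 1032, with the knockout next to wild type/floxed. Rrm1, the large subunit of ribonucleotide reductase, stood at 955, 1206 and 812, between the controls. Rrm2, the small subunit, stood at 678, 729 and 747, 1.08-fold lower than the nearer control. Tyms rested on 1 value above the floor, that of floxed/deleted.

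Mitotic genes other than Ccnb2 went both ways, by less than 1.5-fold from the nearer control. Ccna2, which encodes cyclin A2 of S phase and mitotic entry, stood at 613, 905 and 629, so floxed/deleted was 1.44-fold higher than the nearer pool and the knockout was 1.03-fold lower than wild type/floxed. Cdk1, the mitotic kinase itself, stood at 1333, 1446 and 1478, 1.08-fold lower than the nearer control. The 3 cyclin and Cdk1 genes measured were thus each lowest in the knockout, as were 26.4% of all measured genes, with a median shift of -0.30. With quantile normalization all 3 were again lowest, against 26.9% of all, with a median of -0.34. But with equal medians Ccna2 and Cdk1 lay between the controls and 1 of the 3 was lowest, against 21.5% of all.

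The 3 chromosome and spindle genes among the members lay on the other side. The 37 measured mitotic genes that are no members went both ways. By any amount, 17 of them were higher than both controls and 14 were lower. Mki67, which encodes the Ki-67 protein of the mitotic chromosome surface and is a common marker of cycling cells, stood at 373, 246 and 317, 1.18-fold higher in the knockout than in the nearer control. Kif11, a motor that separates spindle poles, stood at 288, 249.7 and 210.5, 1.15-fold higher. Top2a, the topoisomerase that untangles sister chromatids, stood at 557, 537 and 482, 1.04-fold higher. For each of these genes the knockout differed from the nearer control by less than the controls did from each other, which was 1.29-fold for Mki67, 1.19-fold for Kif11 and 1.11-fold for Top2a. All 3 were highest in the knockout with trimmed means, equal medians and quantile normalization alike. Of all measured genes, 33.4% were also higher than both controls with trimmed means, and 39.9% with equal medians. The median shift of the 3 genes was 0.33 as reported, against 0.16 between the controls. Birc5, the survivin subunit of the Aurora B complex, was also highest there, at 473, 359 and 387, 1.22-fold above the nearer control.

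The mitotic kinases, the checkpoint genes and Cdc20 were near their controls. Cdc20, an activator of the anaphase-promoting complex, stood at 4755, 5545 and 5401, 1.14-fold lower than the nearer control. The kinase genes Plk1 (1181, 1334 and 1300.4) and Aurka (280.4, 324 and 313), which act at centrosomes and spindle poles, were lower by 1.10-fold and 1.12-fold. Aurkb, the kinase partner of Birc5, lay between the controls at 412, 384 and 446 on design C. The spindle checkpoint genes also lay between the controls, with Bub1 at 219.6, 245 and 164, Mad2l1 at 304, 337 and 282 and Bub1b at 1435, 1292 and 1571 on design B. The shifts of the 8 genes ran from -0.20 to 0.34.

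The comparison between classes asked whether G1/S and replication genes and mitotic genes differed from each other. The median shift was -0.09 over 19 measured G1/S and replication genes and -0.01 over 14 measured mitotic genes, against -0.02 over all 12388 measured genes. Between the controls, floxed/deleted minus wild type/floxed, the medians were -0.02 and 0.04. The mitotic median thus exceeded the other by 0.08 in the knockout and by 0.06 between the controls, a gap of like size. With equal medians both class medians turned positive, 0.01 and 0.08, and that scaling moved the median of genes above the floor on design A from 0.02 to 0.11. On design A alone the order of the classes turned, with a difference of -0.06, and against wild type/floxed as the sole control it was -0.02.

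By any amount, 15 of 33 genes were lower in the knockout than in both controls (45.5%), against 26.4% of all measured genes. A further 8 were higher than both (24.2%), against 33.4% of all, and 10 lay between. A gene at the floor in a control cannot be lower in the knockout, so bright genes were also compared among themselves. On design A 14 of 28 genes were lower (50.0%) against 32.6% of the 3321 genes above the floor on all arrays, and 8 were higher (28.6%) against 35.6%. With equal medians the counts over all 33 genes became 9 lower and 8 higher (27.3% and 24.2%), against 21.5% and 39.9% of all genes, so the number of lower genes depended on the scaling. Ccne2, Cdc6, Mcm5, Rrm2, Ccna2 and Cdk1 then lay between the controls. The G1/S and replication genes had 9 lower and 4 higher, and the mitotic genes 6 lower and 4 higher, as reported.

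The spread around the controls was as follows. Of 33 genes 24 lay within 0.25 log2 units of the mean of the controls (72.7%), against 43.6% of all measured genes. On design A above the floor, 21 of 28 did so (75.0%), against 58.2%. The median size of the shift was 0.18, against 0.30 over all genes, and the median size of the difference between the controls was 0.22, against 0.33. All genes include many dim ones. Among genes above the floor on every array of design A, the median shift size was 0.19 for 28 members and 0.21 for all 3321, and the control difference was 0.18 and 0.22. By median size the members' spread was thus close to that of other bright genes, while a larger share of members lay within 0.25 log2 units (75.0% against 58.2%).

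**Figure D3:**
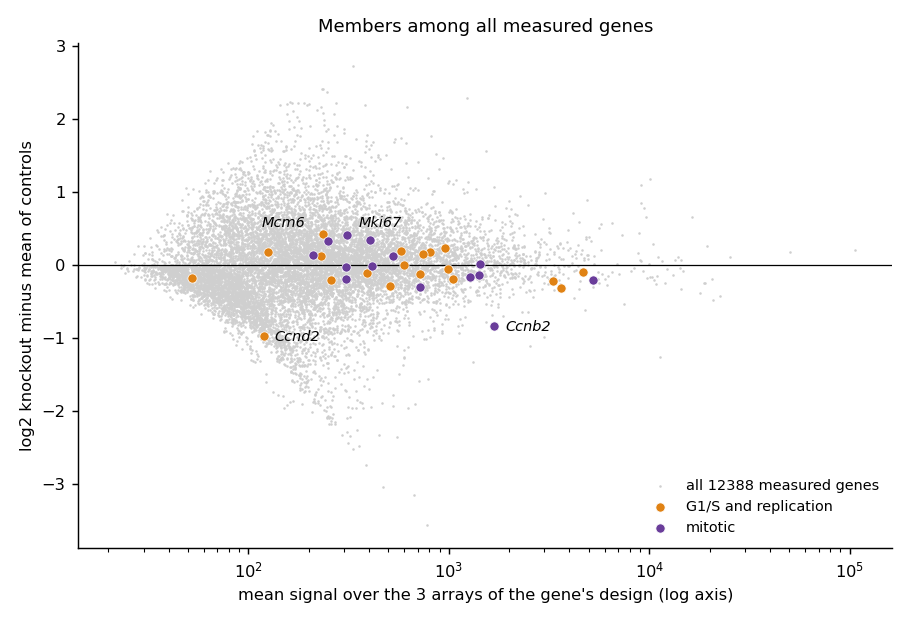
Log2 knockout minus mean of the controls against mean signal (log axis) for all 12388 measured genes (grey), with G1/S and replication genes in orange and mitotic genes in purple. Apart from Ccnd2 (-0.97) and Ccnb2 (-0.83), the members lie between -0.31 and 0.42, and the slanted lower left edge of the grey cloud is the floor.

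The members had 22 probe sets besides the brightest, for 15 genes, of which 7 were below the floor on all arrays, 7 above it on 1 or 2 arrays and 8 above it on all. Of those 8, 3 had the same sign of shift as the brightest and 5 lay within 0.3 log2 units of it. Ccne1 showed the widest gap among the 8, with 118, 252 and 353 on design C, 2.14-fold lower in the knockout, where its brightest probe set on design A was highest in the knockout. A Ccnd3 probe set on design C gave 187, 77.2 and 43.6, at least 2.31-fold higher in the knockout, and one on design B gave 15.5, 125 and 66.9, with 1 value above the floor. Plk1 kept close to its controls on 2 further probe sets, with 658, 649 and 661 and 269, 240.1 and 268. A second Mcm5 probe set gave 2282, 1907 and 2474 and a second Mcm3 probe set 333, 257 and 393, both with the knockout between the controls. The further Aurkb probe set gave 249, 257 and 363, with the knockout and floxed/deleted together below wild type/floxed. The second Cdk4 probe set gave 311, 380.3 and 254, between the controls, where its brightest was lowest in the knockout. Cdk2 gave 65.6, 39.6 and 66.4 and Bub1 gave 37.4, 65.1 and 21.7 on further probe sets of design A near the floor. On design C, Rrm1 gave 229, 17.4 and 291 and Kif11 gave 83.2, 29.6 and 33.4. The probe sets below the floor on all arrays were 1 each of Ccne1, Ccne2, Mcm5, Mcm6, Rrm1, Bub1 and Mki67.

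**Figure D4:**
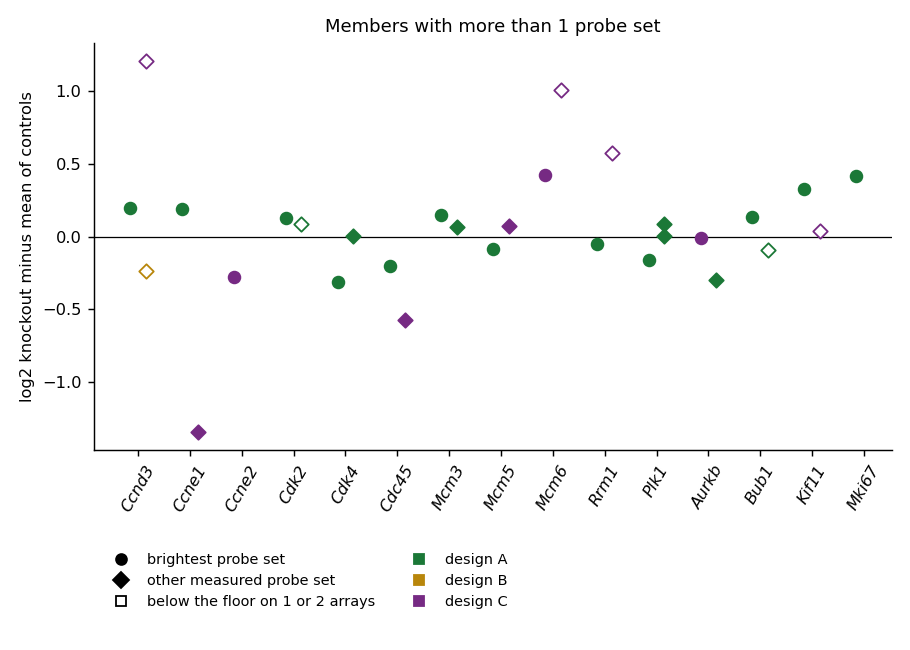
Log2 knockout minus mean of the controls for the brightest probe set (circles) and the other measured probe sets (diamonds) of the 15 genes with more than 1 probe set, coloured by array design; open symbols are below the floor on 1 or 2 arrays. Probe sets on design A stay between -0.31 and 0.42, while those on design C reach from -1.34 for Ccne1 to 1.21 for Ccnd3. Probe sets below the floor on all arrays are not drawn, which leaves 1 symbol for Ccne2 and Mki67.

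The promoter words were set beside the shifts. Genes with a CHR word had a median shift of -0.12 over 15 measured genes and those without one had 0.13 over 13, while between the controls both stood at 0.05. Within the mitotic class the medians were -0.06 over 10 genes with the word and 0.06 over 2 without. Within the G1/S and replication class they were -0.12 over 5 genes with a CHR word and 0.13 over 11 without. Genes with an E2F word had a median of 0.02 over 8 genes and those without one -0.04 over 20. Within the G1/S and replication class the medians were 0.13 over 7 genes with an E2F word and -0.12 over 9 without, against -0.02 and 0.08 between the controls. The shifts of those 7 genes ran from -0.22 for Mcm7 to 0.42 for Mcm6, whose controls were 4.07-fold apart. The CHR and E2F splits of the G1/S and replication class are not independent. Only Mcm5 had both words, and the same 2 genes, Rrm2 (-0.12) and Cdk2 (0.13), set the medians of both splits. Within the mitotic class Cdk1 alone had an E2F word, at -0.13, against 0.01 over 11 genes without. Genes with a CCAAT box had a median of -0.02 over 22 genes and those without one -0.06 over 6. The order differed between the classes. It was 0.04 over 12 genes with the box and -0.15 over 4 without for G1/S and replication genes. For mitotic genes it was -0.06 over 10 with the box and 0.16 over 2 without. These are descriptions of genes that share arrays and pools, with no test.

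Other cell cycle genes, 121 that are no members, were listed by role, and 108 of them were measured. At 1.5-fold, 2 were lower in the knockout than both controls and 4 were higher, against 5.80% and 6.51% of all measured genes. Their median shift was 0.06 against -0.02 between the controls. Cyclin D1 (Ccnd1), the third D-type cyclin gene, was lower on its brightest probe set, at 135, 444 and 316 on design C, 2.35-fold below the nearer control. A second set on design A gave 136, 259 and 269.9, 1.91-fold lower, and another there gave 127, 42.8 and 154, with the knockout between the controls. Cdk7, the kinase that activates other Cdks, was lower on design B at 300.0, 582 and 458, 1.53-fold, but stood at 81.9, 84.3 and 83.6 on design A.

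Those that were higher lay mostly on design C. Tk1, thymidine kinase of the nucleotide salvage route, stood at 1506, 870.3 and 889, 1.69-fold higher, and at 490.0, 443 and 542 on design A, between the controls. Another Tk1 probe set on design C gave 477, 90.9 and 282.5, also 1.69-fold higher, and a further one there gave 119, 30.4 and 390.5, between the controls. Pold1, the catalytic subunit of DNA polymerase delta, stood at 2660.3, 1620.0 and 1729, 1.54-fold higher, and at 1148, 1295 and 1217 on design A, lowest in the knockout. Rpa2, a subunit of the single-strand binding protein, stood at 349.8, 187 and 38.5, 1.87-fold higher, but at 72.3, 143 and 118 on design A, 1.63-fold lower. For these 3 replication genes the probe sets on design A thus did not show the higher level seen on design C. The brightest probe sets of these genes, on design C, each carry a suffix for shared or incomplete probes. Kif23, a motor of cytokinesis, was higher on design A at 512, 332 and 333, 1.54-fold, and on a probe set of design C at 193, 28.7 and 79.1, at least 2.39-fold because both controls were below the floor. Another on design C placed it between the controls at 218, 164 and 223.

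By role, 0 of 36 other replication genes were lower and 3 higher, with a median shift of 0.06, and 0 of 37 other mitotic genes were lower and 1 higher, with a median of 0.07. The 9 measured Rb and E2F family genes, which gate the G1/S switch, held 0 called genes and a median of 0.13. The 8 measured DNA damage checkpoint genes also held 0, with a median of 0.28. Of 7 Cdk inhibitor genes, which restrain the cycle, 4 were measured and 0 called. Cdkn1c stood at 286, 207 and 332 and Cdkn2d at 107, 134 and 122. Cdkn2c gave 55.7, 128 and 74.6 and Cdkn2a gave 34.2, 20.2 and 75.7, with the knockout below the floor for both, and Cdkn1a, Cdkn1b and Cdkn2b lay below the floor on all arrays.

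**Figure D5:**
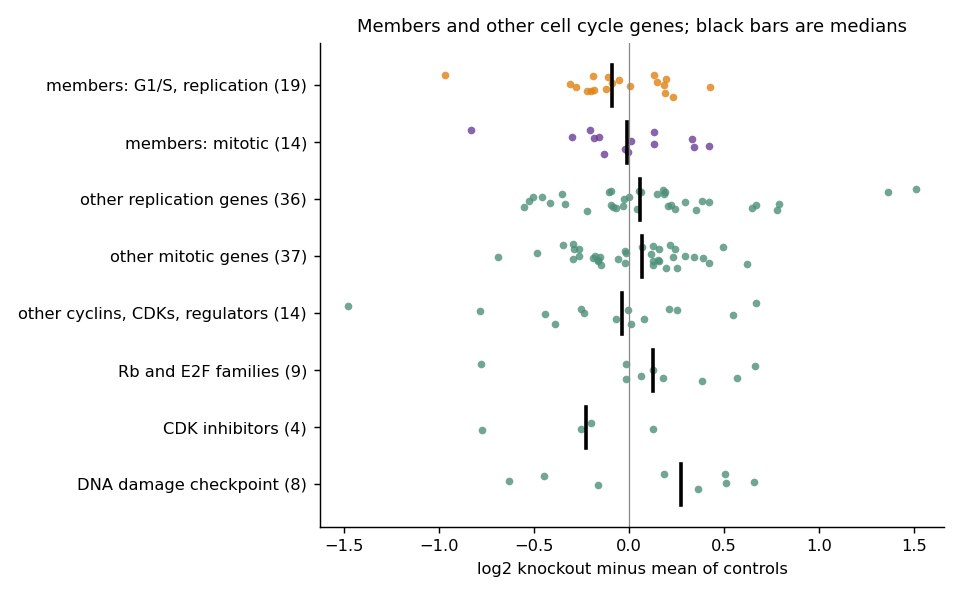
Log2 knockout minus mean of the controls for each measured gene of the 2 member classes and of 6 lists of other cell cycle genes (number of genes in brackets), with black bars at the medians and random vertical spread. The member medians (-0.09 and -0.01) and those of other replication (0.06) and other mitotic genes (0.07) all lie within 0.1 of 0; the point at -1.48 is Ccnd1.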

How the data were processed

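Total RNA of 3 pools of mouse embryos was measured on 9 arrays, 1 per pool and design. The deposited values were intensities on a linear scale, 1 per probe set, as the authors processed them. How probes were summarised, scaled and labelled is not stated in the labels. Before any step here, all arrays shared a trimmed mean (2% of values left out at each end) of 150.0 to 150.1. The array design of each sample was taken per the file headers. Genes were named from the platform annotation, with 1 symbol for 29197 probe sets, several for 724 and none for 6978, and the symbols of all 33 genes matched the RefSeq table by gene ID.

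From these intensities, arrays were scaled to equal trimmed means within a design, each value under the median of all 3 arrays was raised to it, and log2 was taken. Differences are on that scale, which understates changes of dim genes. The probe set with the highest mean signal stood for a gene, and 6 of these carry a suffix for shared or incomplete probes. No test was run, because each group held 1 array per design. The number of arrays limits the precision. Genes were described in full where a pool stood 1.5-fold from both others and for the 3 lowest and 3 highest shifts of each class, and the rest more briefly. The same rule took pathway genes 1.5-fold from both controls in the knockout, Ccnd1 and the measured Cdk inhibitors. The genes, lists and rules were chosen with earlier results of these data known. Alternatives were other scalings, floors, controls, designs and probe set choices. Python 3.11.15, numpy 2.4.6, pandas 2.3.3 and matplotlib 3.10.9 were used. The code was tested on simulated data, with changes well above 1.5-fold put into bright genes of design A. Smaller changes and dim genes were not covered by it.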

Additional observations from a re-analysis of the deposited data

How the results depend on the processing

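Scaling, floor, control, design, probe set choice and fold threshold were each changed in turn. The G1/S and replication median ran from -0.12 to 0.01, the mitotic median from -0.13 to 0.08 and their difference from -0.06 to 0.09, so the sign of each depended on the setting. Both medians were positive with equal medians (0.01 and 0.08), and the difference was below 0 on design A alone and against either control alone. With equal medians the median control difference became -0.12 for G1/S and replication genes and -0.057 for mitotic genes. With floxed/deleted as the sole control the mitotic median was -0.13 and 2 genes, Mcm6 and Mki67, were higher. On design A alone the mitotic median was -0.13 and the difference between the classes -0.063. With a floor at the 70th percentile 1 gene, Ccnb2, remained lower, and Ccnd2 stood at 0 on the log2 scale because its knockout and floxed/deleted values lay under that floor. Without shared-suffix probe sets 1 gene, Mcm6, was higher. At 2-fold 0 genes were lower. Without a floor Tyms, and against wild type/floxed alone Mcm6, brought the lower genes to 3. The settings that kept genes above the floor on design A, or left out Ccnd2 and Ccnb2, were chosen after seeing the data. No paired analysis was possible because each pool had 1 array per design and the labels carry no shared replicate numbers. In the knockout Ccnd2 (73.0) and Tyms (13.2) lay near or under the floor, which limits both.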
